A study of Danio rerio with 19 samples.

Results

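Germ ring embryos and eggs of the zebrafish were compared by poly-A RNA sequencing, 1 library each. The aim was to show how the poly-A RNA of the embryo at the onset of gastrulation differs from that of the egg. The comparison uses 2 of the 19 samples of the series and 2 of its 4 RNA libraries. Each table listed 14244 gene names, and the 10971 names that reached a normalized count of 10 or more in either library were compared as log2 of (germ ring + 1) over (egg + 1). A gene is called higher or lower here when that ratio reaches 2-fold. No library has a replicate, so no test was possible, no p-value is given, and every difference is between these 2 libraries.

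A fully grown oocyte transcribes little, and the early divisions of a fish embryo run on messenger RNA and protein that the mother deposited. The genome of the embryo becomes active during the blastula stages, after which maternal messages are cleared and zygotic ones replace them, a period called the maternal-to-zygotic transition. At the germ ring stage the cells at the margin of the blastoderm begin to move inward, the mesoderm and endoderm are being specified by Nodal, FGF and Wnt signals, and a gradient of BMP activity sets the dorsal and ventral sides.

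The germ ring sample was whole embryos and the egg sample was labelled as a gamete. Both came from the Tubingen strain with no treatment or mutation, and the number of animals pooled is not given in the sources used here. Total RNA was taken from homogenized material and messenger RNA was captured on oligo-T beads, so only RNA with a tail long enough to be held was counted. A higher or lower call can therefore reflect the amount of a message or the length of its tail. Tail length was not measured, and the 2 cannot be told apart here. The germ ring table corresponds to 14753999 reads and the egg table to 9241829. In the scale of the deposited normalized counts 1 read equals 1.51 in the germ ring library and 1.99 in the egg library. Values of the library from the 1k-cell stage, a blastula just before the main wave of zygotic transcription, are given beside some genes (24256918 reads, 0.951 per read). A fold with a 95% interval carries the exact interval of the read ratio, which covers counting error only. Where 1 library had no read, the fold is a bound taken at 3 reads and written as "at least". The values are not divided by gene length, so levels are compared between libraries and not between genes. In whole embryos, fewer cells of a type and less RNA per cell cannot be told apart.

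Within a list the genes named are its highest and lowest members, a fixed set of regulators, and others chosen after their values were seen. Both labels were checked against marker genes. The germ ring library had a normalized count of 11258 for tbxta (listed as ntla), the T-box gene of the margin and notochord, against 9.92 in the egg library, and the germ ring markers tbx16, gsc, chrd (listed as chd), vox and sox32 ranged from 1849 to 20401 at germ ring against 0 to 13.9 in egg. Of the egg markers, cth1 had 8850 at germ ring against 160517 in egg, btg4 921 against 33359, dazl 381 against 21621, and org 1237 against 38791. The egg marker zar1 ran the other way, with 1461 at germ ring and 322 in egg. The egg markers buc and h1m have no row under those names in these tables.

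Across all 10971 genes, 5269 (48.0%) were at least 2-fold higher at germ ring and 2169 (19.8%) at least 2-fold lower, while 3533 (32.2%) lay within 2-fold. The median log2 ratio was 0.88, with quartiles of -0.61 and 2.46. The genes called higher held 56.4% of the germ ring total and 13.4% of the egg total; those called lower held 7.32% and 42.2%. A difference of 16-fold or more was seen for 1149 genes (10.5%) that were higher at germ ring and 283 (2.58%) that were lower. The split depends on the scaling: median-of-ratios scaling of the same libraries shifts the ratios of well-counted genes by -0.69 on the log2 scale, and gives 3935 higher (35.7%) and 3387 lower (30.7%) of 11032 genes, with a median of 0.11. This second scaling is called rescaling from here on. Ratios below about that size are therefore read against this shift, and the split after rescaling is given for each list. Each list split is to be read beside the shares of all genes given above.

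**Figure D1:**
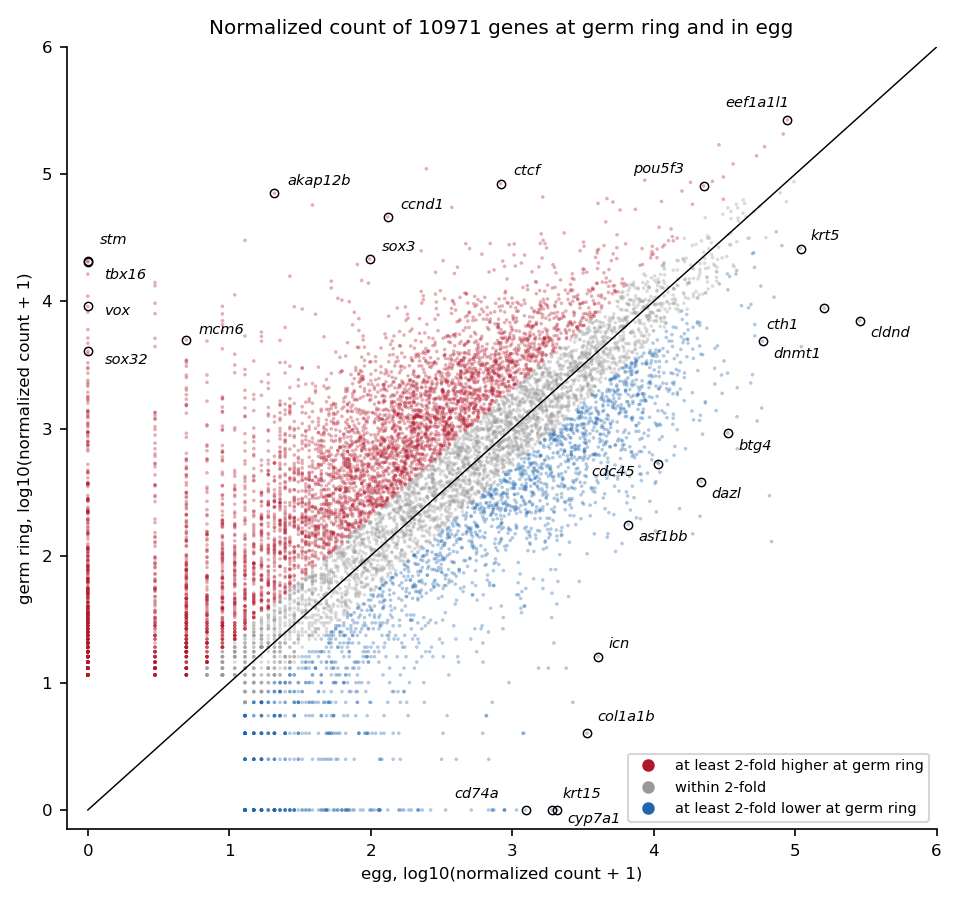
Each point is 1 of 10971 genes, with its egg value on the horizontal axis and its germ ring value on the vertical axis, both as log10(normalized count + 1) of 1 library; the line marks equal values. Genes with no read in egg line the left edge up to tbx16 at 20401 and stm at 20700, and genes with no read at germ ring line the bottom edge out to krt15 at 1907 and cyp7a1 (listed as cyp7a1a) at 2076.

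The ratio differed with the abundance of a message in the egg. Among the 510 genes with no read in egg the median log2 ratio was 4.81. Among the 3481 genes with 11 to 100 egg reads it was 1.37, with 1980 higher and 549 lower. It was -0.60 for the 1646 genes with over 1000 and up to 10000 egg reads, of which 194 were higher and 673 lower, and -0.90 for the 138 genes with over 10000, of which 10 were higher and 60 lower. Part of this slope is built into the measure, since a gene with no egg read enters only if it reached 10 at germ ring. The classes are also formed from egg reads, the denominator of the ratio, so counting error alone tilts the medians the same way. How much of the slope this makes was not tested. At most 3 egg reads were found for 1020 genes, of which 241 exceeded 100 and 69 exceeded 1000 at germ ring. The reverse case was rarer by count: 343 genes had at most 3 reads at germ ring, 57 of them over 100 and 7 over 1000 in egg. These counts are not taken at the same level, since 3 reads equal 5.95 in egg and 4.52 at germ ring. The cutoff is therefore looser in egg, and how much of the difference in counts this makes was not tested. As deposited, a gene with at most 3 reads in 1 library entered through the other library alone. With at most 3 egg reads it could not be called lower, and with at most 3 germ ring reads it could not be called higher. This holds for the members of every list below.

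The 15 genes with the highest ratios, leaving out names of clone type, included several regulators of early patterning. They were stm, tbx16, asb11, nnr, vox, ved, ctsll, nr0b2a, foxd5, cki, sox32, aplnrb, akap12b, vent and wnt11. Their germ ring values ran from 3281 to 70833 and their egg values from 0 to 19.8, with 12 of the 15 without a read in egg. The T-box gene tbx16, which is needed for trunk mesoderm, had 20401 at germ ring, while the egg library held none of its reads, a difference of at least 3426-fold. The starmaker gene stm, known for its role in the otolith of the ear, had 20700 and 0, at least 3477-fold. The scaffold gene akap12b had 70833 at germ ring and 19.8 in egg, 3569-fold higher with an interval of 1940 to 7443. At the 1k-cell stage the 15 genes were still low, between 0 and 99.8, and 8 of them had at most 3 reads.

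Genes known from the first wave of zygotic transcription had the highest list median as deposited, while with a pseudocount of 0.1 or a floor of 50 that place went to the gastrula list described next. Of the 59 measured first-wave members 56 were higher and 1 was lower, beside 48.0% and 19.8% of all genes, or 56 and 2 after rescaling. Their median log2 ratio was 7.35 beside 0.88 for all genes. At most 3 egg reads were found for 19 of the 59, which as deposited could not be called lower. The SoxB1 genes sox3 and sox19a, early neural and pluripotency regulators, had 21507 and 19485 at germ ring against 97.3 and 79.4 in egg. The small heat shock gene hspb1 had 57198 at germ ring, 37.7 in egg and 105 at 1k-cell, 1517-fold higher than egg (971 to 2520). The lower member was the keratin gene krt5, at 25968 against 109093. The remaining exceptions were wnt8a, which encodes a ventrolateral Wnt ligand of the margin, at 744 against 961 and past 2-fold lower after rescaling, and arl4d, at 2239 against 2304.

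Regulators of mesoderm, endoderm and the organizer had 54 of 66 measured members higher and 5 lower, or 52 and 8 after rescaling. The median log2 ratio was 7.09, or 5.88 when the 26 members with no egg read are set at their bound. At most 3 egg reads were found for 35 of the 66. As deposited these entered through their germ ring value alone and could not be called lower, so the split is partly set by the floor. Among mesoderm genes tbxta (listed as ntla) was 1134-fold higher than in egg (486 to 3495), and had only 1 read at the 1k-cell stage. Among endoderm genes the Sox factor sox32, which is needed for endoderm, had 4042 at germ ring and no read in the other 2 libraries, at least 679-fold higher. Its target gene sox17 had 67.8 at germ ring and no egg read, at least 11.4-fold. In the organizer, the homeobox gene gsc had 1849 against 13.9, 133-fold higher (64.4 to 332). The 2 lowest members were twist1a, at 1.51 against 31.8 on 1 and 16 reads, and the T-box gene eomesa, a maternal activator of endoderm genes, at 1912 against 18773.

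**Figure D2:**
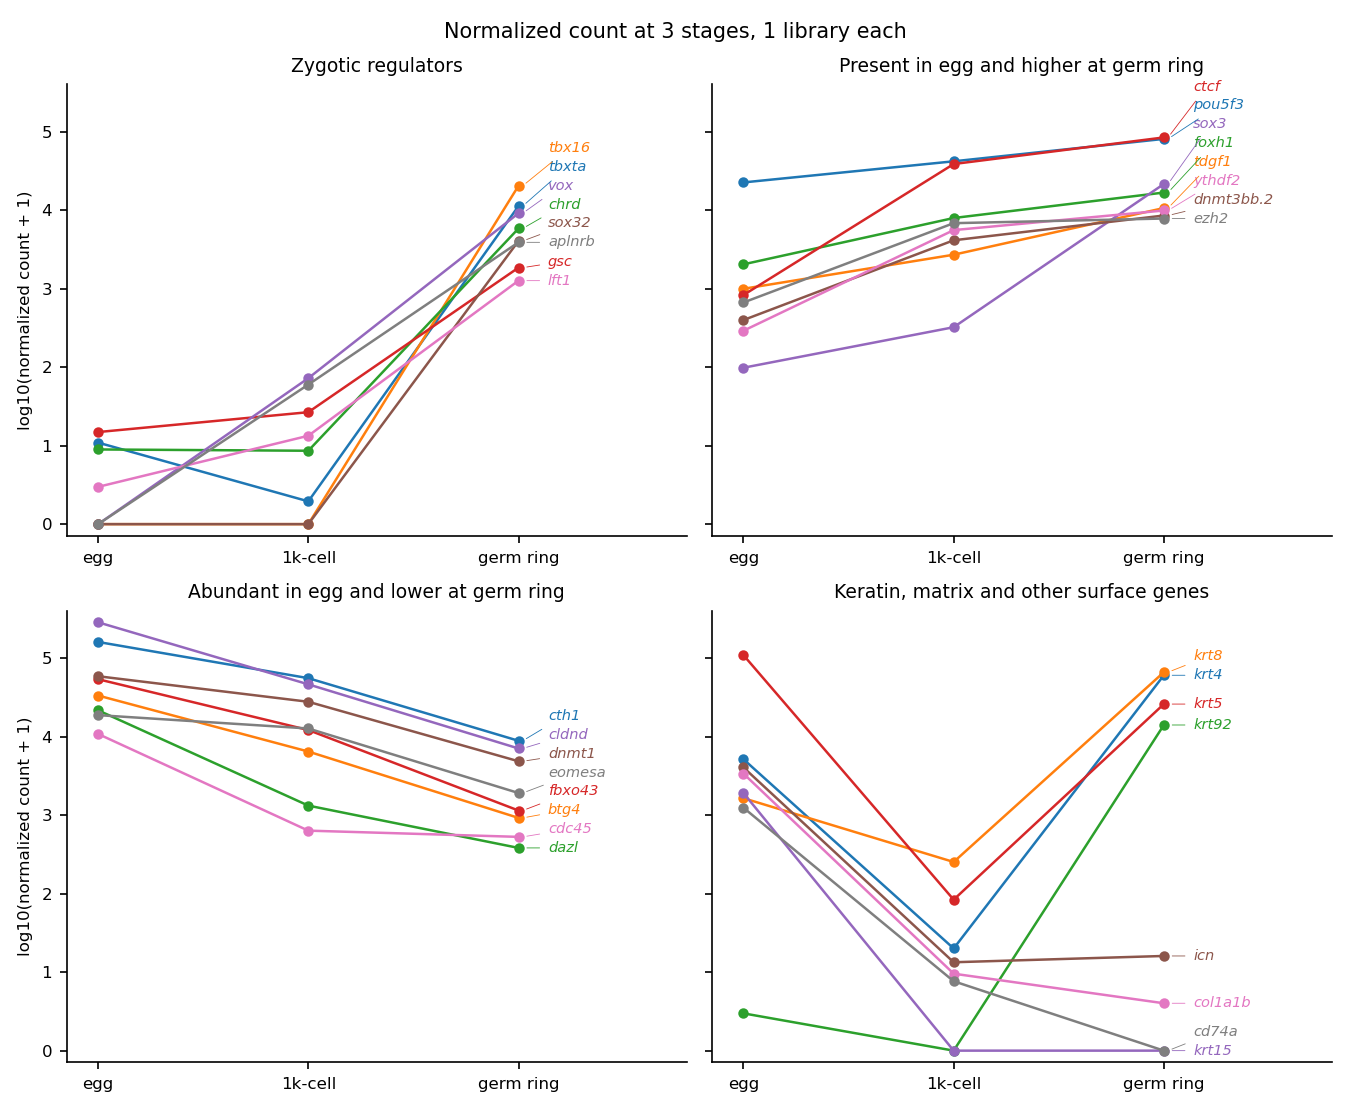
Each line is 1 gene, with log10(normalized count + 1) in the egg, 1k-cell and germ ring libraries, 1 library each, in 4 groups of 8 genes. The zygotic regulators reach their germ ring values after low 1k-cell values. All genes in the upper right panel are above their egg values at 1k-cell, where sox3 stands at 321 against 97.3 in egg. The egg genes decline over both steps, and all 8 keratin and surface genes are at 252 or less at 1k-cell.

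In the Nodal pathway the squint, cyclops and Lefty genes were higher at germ ring, and the transducer genes smad2 and smad3a were lower. The ligand genes ndr1 and ndr2, both Lefty genes, the activin receptor genes acvr1ba, acvr2aa and acvr2ba and the co-receptor gene tdgf1 (listed as oep) were all called higher, but acvr1ba and acvr2ba lay within 2-fold after rescaling. The ligand gene ndr1 (squint) had 850 at germ ring, 13.9 in egg and 93.2 at 1k-cell. The ligand gene ndr2 (cyclops) had 499 at germ ring against 1.98 in egg, a single read. The antagonist genes lft1 and lft2, which are induced by Nodal and bind its co-receptor, had 1263 and 1324 at germ ring against 1.98 and 0 in egg. The co-receptor gene tdgf1 (listed as oep) was 10.7-fold higher, at 10622 against 994 (9.76 to 11.7), and foxh1, which encodes the DNA-binding partner of Smad2, 8.21-fold, at 16739 against 2038. The maternal ligand gene gdf3 (listed as dvr1), whose product pairs with Nodal, had 18694 against 36995, and smad2, the signal transducer, 1621 against 5371. Over the 17 members the split was 12 higher and 3 lower, or 9 and 5 of 16 after rescaling.

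BMP ligand and antagonist genes were mostly higher at germ ring. All 6 measured ligand genes and all 6 extracellular or membrane antagonist genes were called higher, or 5 of each after rescaling, when bmp6 and twsg1a lay within 2-fold. The ligand gene bmp2b had 2745 at germ ring against 9.92 in egg, 277-fold higher (118 to 853), and bmp4 had 292 against 3.97, on 2 egg reads. The antagonist gene chrd (listed as chd), secreted by the organizer, had 5835 against 7.94, 735-fold higher (287 to 2699). The homeobox repressors vox, ved and vent, which hold down organizer genes on the ventral side, had 9126, 8220 and 3281 at germ ring and no read in egg. Receptors were mixed, with 4 of 7 higher and 1 lower, or 2 and 2 after rescaling, and the intracellular transducer gene smad5, which is supplied maternally, had 13200 against 26031. The list as a whole had 25 of 32 members higher and 2 lower, or 20 and 4 after rescaling. At most 3 egg reads were found for 10 of the 32, which as deposited could not be called lower. The lowest members were id2a, at 711 against 1681, and the receptor gene bmpr1bb, at 99.4 against 200.5.

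In the Wnt list 6 planar polarity genes and most receptor genes were higher. The ligand gene wnt11, which steers cell movements of gastrulation, had 9656 at germ ring, 1.98 in egg (1 read) and 99.8 at the 1k-cell stage. All 6 genes grouped here for planar polarity (wnt11, wnt5b, vangl2, gpc4, prickle1a and prickle1b) were called higher, with log2 ratios from 3.69 to 11.66. The Dishevelled genes dvl2 and dvl3a (listed as dvl3), not in this group, had log2 ratios of 2.92 and 0.28. Of 11 Frizzled receptor genes 9 were higher and 1 was lower, or 7 and 1 after rescaling. The Wnt target and effector genes sp5l and sp5a (listed as sp5) had 1927 and 946 at germ ring and no egg read. Other such genes on the list did not share this rise: lef1 had 783 against 4156, and axin2 1505 against 953, a log2 ratio of 0.66. Among the beta-catenin genes, ctnnb1 was 3.50-fold higher, at 38252 against 10916, while ctnnb2, the copy required maternally for the dorsal axis, had 31728 against 62078, a log2 ratio of -0.97. The kinase gene gsk3ab (listed as gsk3a) was 6.33-fold lower, at 4461 against 28221. The list had 32 of 49 members higher and 5 lower, or 29 and 12 of 53 after rescaling.

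FGF ligand genes and most genes known as feedback inhibitors or targets of FGF signalling were higher. All 6 measured ligand genes were called higher, led by fgf17 (1583 at germ ring, no egg read). The ligand gene fgf8a had 2233 against 33.7, 66.2-fold higher (41.2 to 114). The receptor gene fgfr4 had 6572 against 7.94, 828-fold higher (323 to 3040), while fgfr3 had 3.01 against 27.8. Of 10 genes grouped here as feedback and target genes, 8 were higher and 1 was lower. The higher ones included the Sprouty genes, dusp6 and the Ets genes etv4 (listed as pea3) and etv5b. The lower one was the Ets gene etv5a, at 3119 against 7472. The immediate-early gene egr1 and the phosphatase gene dusp5 were not put in this group, and both were lower. The first had no germ ring read and 23.8 in egg, and dusp5 had 19.6 against 165. Over the 26 members 17 were higher and 6 lower, or 16 and 6 after rescaling.

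In the Notch list the delta ligand genes and most hairy-related repressor genes were higher. The delta gene dld had 1357 at germ ring against 7.94 in egg. The glycosyltransferase gene lfng, which tunes ligand choice by Notch, had 5728 against 15.9, 361-fold higher (183 to 836), and the repressor gene hes6 had 1773 against 7.94. Of the 13 hairy-related repressor genes 11 were higher and none was lower, or 11 and 1 after rescaling. The protease gene adam10a, whose product cleaves Notch, had 7595 against 6546. The ligand gene jag1b was lower, at 55.7 against 198. The list had 21 of 34 members higher and 2 lower, or 20 and 7 after rescaling.

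**Figure D3:**
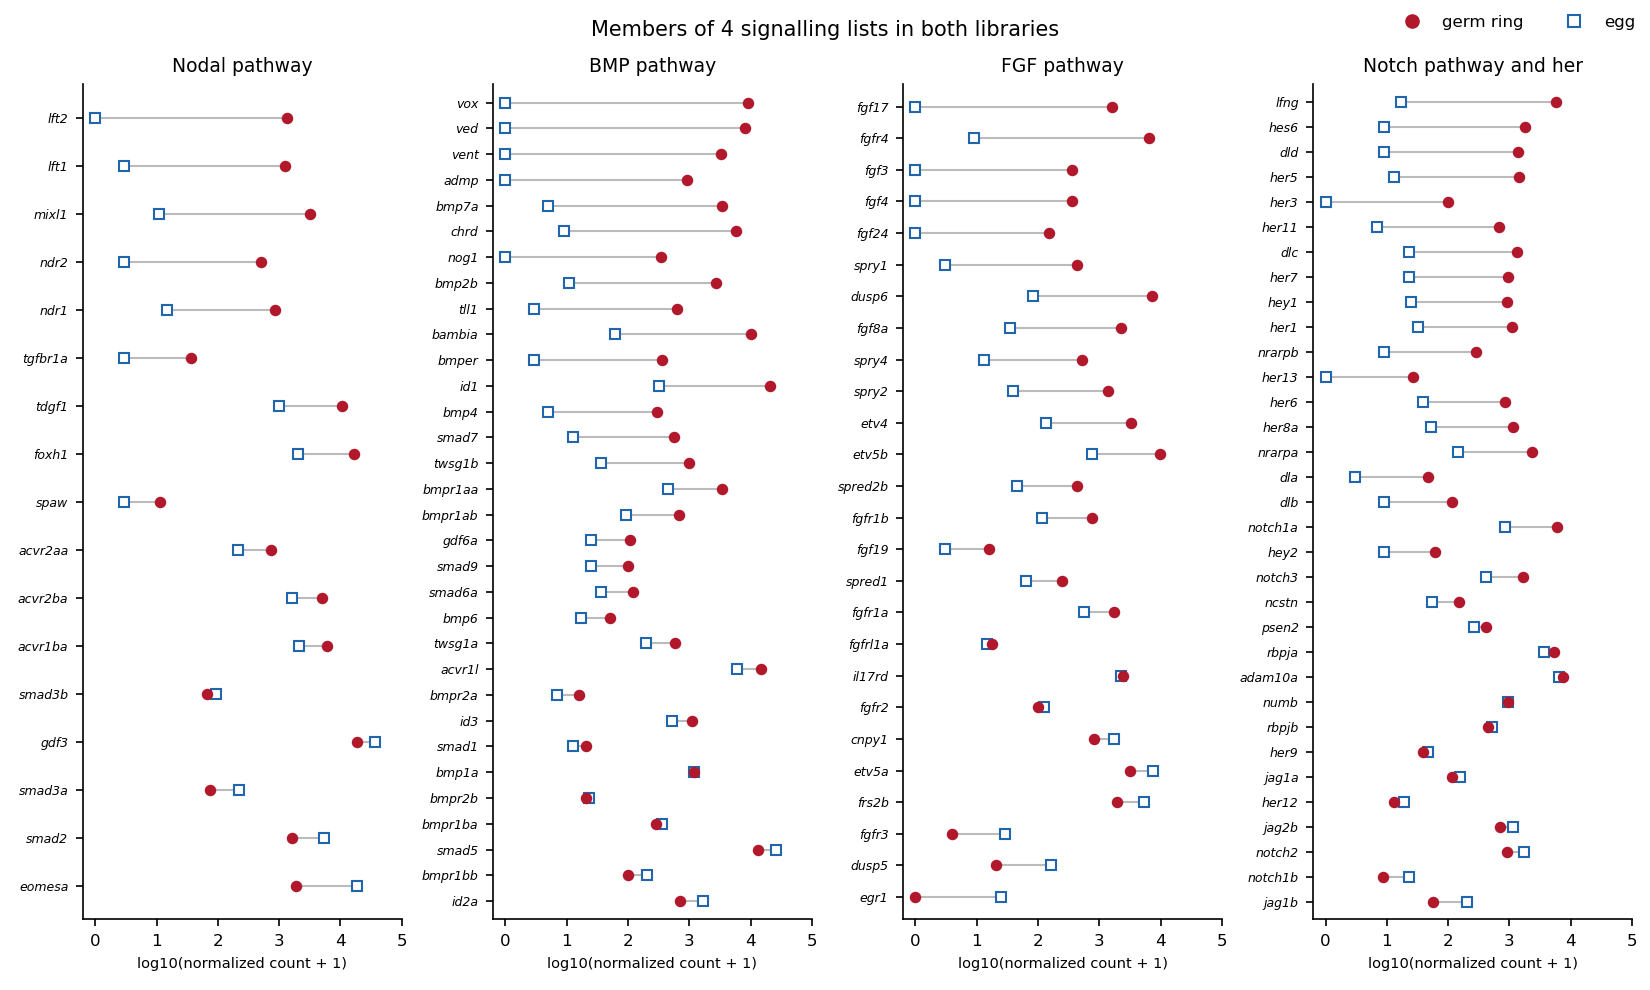
Measured members of the Nodal, BMP, FGF and Notch lists are drawn, each with its germ ring value (filled circle) and its egg value (open square), as log10(normalized count + 1) of 1 library each, in order of the ratio. The upper rows, with wide gaps, hold genes such as lft2, vox, fgf17 and lfng. The lower rows, with the germ ring value to the left of the egg value, hold smad2, smad5, the ligand genes gdf3 and jag1b, and egr1 and dusp5.

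Genes known for guiding migrating cells were mostly low in egg and higher at germ ring. The apelin receptor gene aplnrb, which is needed for mesendoderm cells to migrate, had 3886 at germ ring against no egg read, at least 653-fold higher. Its 1k-cell value was 58.9. The chemokine receptor gene cxcr4a had 10545 against 57.6, 183-fold (127 to 274), and cxcr4b had 7090 against 177, 40.1-fold (32.5 to 50.1). The hyaluronan synthase gene has2 had 5114 against 1.98, a single egg read, with an interval of 462 to 101795 on its ratio of 2576. Of the 15 members 12 were higher and 3 were lower, or 11 and 5 of 17 after rescaling. As deposited the 3 lower ones were pdgfaa, at 10.5 against 25.8, kdrl, at 6.03 against 37.7, and vegfaa, at 0 against 35.7.

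In the adhesion list 31 of 46 members (27 of 48 after rescaling) were higher, beside 48.0% of all genes (35.7% after rescaling), and 6 (7 after rescaling) were lower. Protocadherin genes pcdh8 (1088 against 0) and pcdh18b (2085 against 3.97) and the laminin gene lamb1a (604 against 1.98) led the list. N-cadherin, cdh2, had 2671 against 665, 4.02-fold higher (3.57 to 4.53). E-cadherin, cdh1, the main cadherin of the blastula, had 16166 against 11946, a log2 ratio of 0.44 that becomes -0.25 after rescaling. The lowest members were itga6b, at 40.7 against 2066, and itgb4, at 19.6 against 1969, which encode the integrin subunits of hemidesmosomes.

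The egg-supplied regulators of genome activation pou5f3, nanog and sox19b did not share 1 course. The POU factor gene pou5f3 (listed as pou5f1) had 80736 at germ ring, 22524 in egg and 41838 at 1k-cell, 3.58-fold higher than egg (3.51 to 3.66). The homeobox gene nanog (listed as zgc:193933) had 35206 at germ ring against 73460 in egg, 2.09-fold lower (2.05 to 2.12 as egg over germ ring), and 77955 at the 1k-cell stage. For sox19b, the maternal SoxB1 gene, the 1k-cell value of 48352 was far above both its germ ring value of 6745 and its egg value of 3674. The insulator gene ctcf had 84280 against 828, 102-fold higher (92.5 to 112), and was already at 38641 at the 1k-cell stage. The list also holds genes with low or no egg counts: sox3 (21507 against 97.3), znfl1 (214 against 0) and sox2 (773 against 11.9). Its split therefore does not describe egg-supplied genes alone. In the list 12 of 18 members were higher and 3 were lower, or 12 and 4 after rescaling. The lowest were myca, at 45.2 against 196, and eomesa.

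Messages typical of the oocyte and egg were divided. Of 41 measured members 16 were lower, 10 higher and 15 within 2-fold, and the median log2 ratio was -0.59. After rescaling 25 of 42 were lower and 7 higher. Of the lower members fbxo43 (listed as zgc:66488), which encodes a meiotic inhibitor of the anaphase-promoting complex, was 47.1-fold lower, at 1144 against 53815, with a 1k-cell value of 12127. The claudin gene cldnd was 40.5-fold lower, at 7062 against 285730, and the antiproliferative gene btg4, which recruits a deadenylase to maternal messages, 36.2-fold, at 921 against 33359. The zinc finger gene cth1 was 18.1-fold lower, at 8850 against 160517, and the meiotic kinase gene mos 6.99-fold, at 253 against 1770.

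Among 13 measured zona pellucida genes, which encode the egg coat, 4 were higher and none lower as deposited, but 2 were higher and 5 lower after rescaling. Their germ ring values ran from 34.7 to 2255 against 3.97 to 2149 in egg. The coat gene zp3b had 2255 against 1137, a log2 ratio of 0.99. These genes are near-identical copies in part, and reads may be shared among them. In the whole oocyte and egg list, the 2 highest ratios were those of ctsll and npm2a, neither of them a coat gene. The nucleoplasmin gene npm2a had 268 against 19.8. The cathepsin L-like protease gene ctsll had 6001 at germ ring and no read in egg or at the 1k-cell stage. It is counted among the 10 higher members of the list although the egg library held none of its reads.

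Genes that act in the decay of messenger RNA went both ways. Of 43 members 18 were higher and 10 were lower, beside 48.0% and 19.8% of all genes. After rescaling 14 were higher and 15 lower, beside 35.7% and 30.7%. All 3 YTH reader genes of methylated adenosine were higher, and ythdf2 (listed as yth2) was 34.1-fold higher, at 9888 against 290 (29.0 to 40.5), with 5562 at the 1k-cell stage. The deadenylase subunit gene cnot3a had 2067 against 67.5, 30.6-fold (21.8 to 44.4). It does not stand for its complex: of 13 CCR4-NOT deadenylase and BTG genes 7 were higher and 5 lower, or 5 and 6 after rescaling. The subunit gene cnot7 was lower, at 175 against 2812. Also lower was drosha (listed as rnasen), the nuclear nuclease gene of microRNA processing, 20.1-fold, at 351 against 7064.

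Germ plasm, piRNA and meiosis genes were nearly evenly divided. The germ cell RNA-binding gene dazl, whose message sits in the germ plasm, had 381 at germ ring, 21621 in egg and 1321 at 1k-cell, 56.7-fold lower than egg (50.1 to 64.5). The helicase gene vasa (now ddx4) had 6783 against 3701, a log2 ratio of 0.87, and the Tudor genes tdrd9 (listed as si:dkey-15f17.9) and tdrd5 were 11.1-fold and 9.44-fold higher, at 2168 and 1275 against 195 and 135. The carbonic anhydrase gene ca15b was 8.27-fold lower, at 949 against 7846. Of 25 members 10 were higher and 11 lower, beside 48.0% and 19.8% of all genes. After rescaling 7 were higher and 12 lower, beside 35.7% and 30.7%.

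DNA methyltransferase genes were on both sides: the maintenance enzyme gene was lower and several de novo enzyme genes were higher. The maintenance enzyme gene dnmt1 had 4851 at germ ring, 58757 in egg and 27780 at 1k-cell, 12.1-fold lower than egg (11.7 to 12.6). Of 6 de novo enzyme genes 4 were higher and none was lower as deposited, and 3 were higher and 2 lower after rescaling. The gene dnmt3bb.2 (listed as dnmt3) was 21.5-fold higher, at 8534 against 397 (18.7 to 24.9), and dnmt3bb.1 (listed as dnmt4) 4.75-fold, at 2430 against 512. The tRNA methyltransferase gene trdmt1 was 60.1-fold lower, at 31.6 against 1901. Of the 5 gadd45 genes, stress-induced genes that have also been linked to demethylation, 4 were higher, led by gadd45bb at 5293 against 15.9 and gadd45aa at 265 against 1.98. The row for uhrf1 holds no read in any of the 3 libraries, and tet2 and tet3 have no row under those names. The list had 13 of 26 members higher and 6 lower, beside 48.0% and 19.8% of all genes. After rescaling 11 were higher and 9 lower, beside 35.7% and 30.7%.

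Polycomb, Trithorax and histone-modifying genes had 20 of 44 members higher and 9 lower, beside 48.0% and 19.8% of all genes. After rescaling 9 were higher and 14 lower, beside 35.7% and 30.7%. The demethylase gene kdm2ba was 71.0-fold higher, at 1550 against 21.8 (39.5 to 143), and ezh2, the catalytic subunit gene of Polycomb repressive complex 2, 11.8-fold, at 7813 against 665 (10.5 to 13.2). Other genes of that complex went both ways, with log2 ratios of -2.17 for eed, -0.36 for suz12a and 1.17 for suz12b. The H3K9 methyltransferase genes setdb1a and suv39h1a were lower, at 1656 against 16424 and 389 against 1961. Their copies were not: suv39h1b was higher as deposited, at 7838 against 3420, and setdb1b lay within 2-fold, at 6129 against 4823. The H3K9 enzyme genes ehmt1b and ehmt2 had log2 ratios of 1.37 and -2.03. Among histone and chaperone genes 13 of 29 were higher and 4 lower, or 8 and 8 after rescaling. The assembly factor gene chaf1b was 47.2-fold higher, at 2153 against 45.6 (31.3 to 74.6), whereas the chaperone gene asf1bb was 37.8-fold lower, at 175 against 6599, and slbp2 (listed as zgc:158856), an oocyte gene for histone message binding, 20.3-fold lower, at 444 against 9028. Poly-A capture leaves out most replication-dependent histone messages, which end in a stem-loop.

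Cell cycle genes were nearly evenly divided. Of 65 members 26 were higher and 24 lower, beside 48.0% and 19.8% of all genes. After rescaling 22 were higher and 31 lower, beside 35.7% and 30.7%. The median log2 ratio was 0.06, below the 0.88 of all genes. The 2 highest members were genes for G1 and S phase cyclins. Cyclin D1, ccnd1, had 46109 at germ ring, 131 in egg and 194 at 1k-cell, 352-fold higher than egg (277 to 455), and ccne2 had 9138 against 7.94, 1151-fold (449 to 4226). Among other cyclin D genes, ccnd3 was higher, at 262 against 55.6, and ccnd2a was within 2-fold, at 133 against 85.3. The maternal cyclin E gene ccne1 had 21973 against 30453. The 2 lowest members were the kinetochore motor gene cenpe (listed as zgc:152925), at 381 against 10372, and birc5b, at 209 against 5228. The latter is a survivin gene of the chromosomal passenger complex. Other mitotic genes went both ways. Higher ones included nuf2, at 711 against 21.8, and cdca8, at 4021 against 252. Lower ones included aurkb, at 1889 against 30465, and bub3, at 901 against 22159. Of the 5 cyclin A and B genes 3 were lower, among them ccnb1 at 27401 against 80577 and ccna1 at 18479 against 51567. The exceptions were ccna2, at 29899 against 21752, whose log2 ratio of 0.46 is -0.23 after rescaling, and ccnb3, at 1686 against 282.

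Replication genes were likewise split, with 21 of 54 higher and 18 lower, beside 48.0% and 19.8% of all genes. After rescaling the balance turned to 19 and 24, beside 35.7% and 30.7%. Of the 7 MCM helicase subunit genes 5 were higher and 1 lower, or 5 and 2 after rescaling. The highest were mcm6, at 4970 against 3.97 on 2 egg reads, and mcm3, at 2629 against 3.97. The mcm6 ratio was 1252 with an interval of 346 to 10344. The lower one was mcm7, at 12315 against 33460. At the 1k-cell stage mcm6 stood at 10.5 and mcm3 at 31.4, far below their germ ring values. The maternal copy mcm6l had 6201 against 8695. The 2 lowest members were cdc45, 20.5-fold lower, at 527 against 10803, and gins2, 12.4-fold, at 423 against 5246. The other GINS genes were not lower as deposited. Of these gins3 was higher, at 1888 against 456, and gins1 and gins4 (listed as zgc:100817) had log2 ratios of 0.98 and 0.21. At the 1k-cell stage cdc45 stood at 633 and gins2 at 801.

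Genes that build ribosomes were almost all higher. Of 76 measured members 71 were higher and 2 lower, or 63 and 3 after rescaling, and the median log2 ratio was 2.96. The processome gene wdr43 was 109-fold higher, at 8204 against 75.4 (79.1 to 154), and heatr1 had 353 against 1.98 on 1 egg read. At the 1k-cell stage these 2 genes were already at 5423 and 547. The lowest members were polr1d, a subunit gene of RNA polymerases I and III, at 420 against 1314, and ubtfl, at 503 against 1201.

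Ribosomal protein genes themselves stayed close to the egg. Of 83 members 75 were within 2-fold, 7 were higher and 1 was lower, and the median log2 ratio was 0.21. After rescaling 3 were higher and 15 lower. The highest of the list was the rpl7-like gene rpl7l1, at 4448 against 161. Next came rps21, at 21.1 against 1.98 on 1 egg read, and rpl4, at 7648 against 2290. Translation factor genes had 37 of 60 higher and 5 lower, or 29 and 8 of 61 after rescaling. The elongation factor gene eef1a1l1 had 267294 at germ ring against 88234 in egg, 3.03-fold higher, and falls within 2-fold after rescaling. Of the 9 subunit genes of eIF2 and its exchange factor eIF2B 8 were higher, among them eif2b1, at 52.7 against no egg read, and eif2s1a (listed as eif2s1l), at 11963 against 226. The cap-binding protein gene eif4e3, at 2302 against 9380, and eif4enif1, whose product binds eIF4E, at 2646 against 6911, were the lowest.

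**Figure D4:**
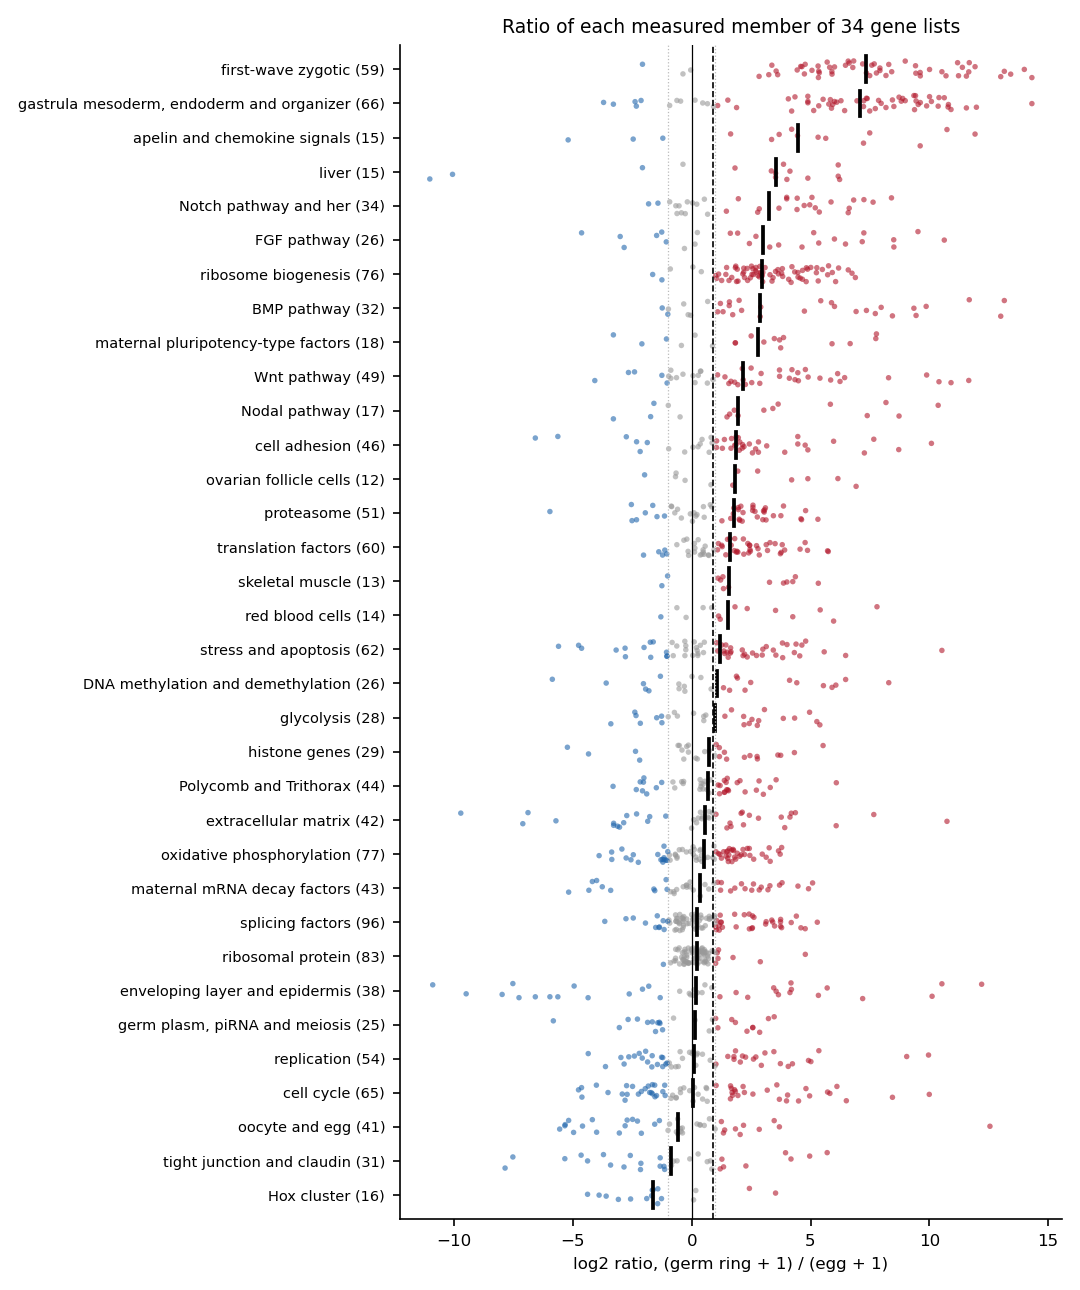
Each point is 1 measured member of 1 of 34 gene lists, placed by its log2 ratio of germ ring over egg, with the number of members in brackets; black bars are list medians, the dashed line is the median of all genes at 0.88 and the dotted lines mark 2-fold. Ribosome biogenesis members lie almost all to the right of 2-fold, ribosomal protein members cluster near 0, and cell cycle, replication and epidermis members spread to both sides.

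Proteasome genes had 29 of 51 members higher and 8 lower, beside 48.0% and 19.8% of all genes. After rescaling 27 were higher and 13 lower, beside 35.7% and 30.7%. The assembly chaperone gene psmd9 had 354 against 7.94, and the core subunit gene psma2a (listed as psma2) 963 against 33.7, 28.5-fold higher (17.7 to 49.3). Of 5 genes grouped here as immunoproteasome and PA28 genes 2 were lower and none was higher, or 4 and none after rescaling. Of these psmb10 had no read at germ ring and 61.5 in egg. The PA28 gene psme3, not in this group, had 7422 against 11212, a log2 ratio of -0.60. Splicing genes had 53 of 96 members within 2-fold, 32 higher and 11 lower, but 23 and 34 of 97 after rescaling. The splicing repressor gene ptbp1a was 39.1-fold higher, at 12115 against 310 (33.4 to 46.1), with 261 at the 1k-cell stage, and lsm4 was 6.81-fold lower, at 497 against 3388.

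Energy metabolism genes showed no common direction. Oxidative phosphorylation genes had 34 of 77 members higher and 18 lower, beside 48.0% and 19.8% of all genes. After rescaling 21 of 78 were higher and 27 lower, beside 35.7% and 30.7%. The complex I gene ndufs8b was 14.3-fold higher, at 396 against 27.8, and the copper chaperone gene cox17 10.3-fold lower, at 515 against 5331. Glycolysis genes had 14 of 28 higher and 7 lower, or 12 and 10. The hexokinase gene gck had 10.5 against 121.

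Stress and apoptosis genes had 33 of 62 members higher and 13 lower, beside 48.0% and 19.8% of all genes. After rescaling 22 of 61 were higher and 16 lower, beside 35.7% and 30.7%. After hspb1, the highest was gadd45aa. At the low end, the immediate-early gene fosb had no read at germ ring and 47.6 in egg, and the BH3-only gene bmf1, a promoter of cell death, was 28.2-fold lower, at 24.1 against 679 (17.1 to 49.8 as egg over germ ring).

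Keratin genes were found on both sides, and those named here were low at the 1k-cell stage. Of 15 keratin genes in the epidermis list 8 were higher and 5 lower, as deposited and after rescaling. Over all genes 48.0% were higher and 19.8% lower, or 35.7% and 30.7% after rescaling. The keratin krt92 (listed as zgc:109868) had 14058 at germ ring, 1.98 in egg and 0 at 1k-cell; cyt1 had 4410, 1.98 and 0.951. The simple-epithelium keratins krt4 and krt8, markers of the enveloping layer that covers the blastoderm, had 60446 and 66146 against 5146 and 1641, with 19.0 and 252 at the 1k-cell stage. Against these, krt5 was lower, at 25968 against 109093, and only 82.7 at the 1k-cell stage. The keratin krt15 had no read at germ ring and 1907 in egg, at least 422-fold lower, and the ictacalcin genes icn and icn2, which encode small calcium-binding proteins, had 10 reads and none at germ ring against values of 4047 and 718 in egg. Keratin copies can share reads.

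Claudin genes were also on both sides. The claudin genes cldne, at 25974 against 498, and cldn3d (listed as cldnc), at 402 against 11.9, were higher, and cldni, at 12.1 against 2403, and cldn1, at 0 against 230.2, were lower. None of these 4 had more than 2 reads at the 1k-cell stage. The tight junction list had 15 of 31 members lower and 8 higher, or 19 and 5 of 32 after rescaling, and its median log2 ratio of -0.85 was 1 of 3 below 0 among the 34 lists as deposited, where 13 were below 0 after rescaling.

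In the matrix list 17 of 42 members were higher and 14 lower, beside 48.0% and 19.8% of all genes. After rescaling 13 were higher and 15 lower, beside 35.7% and 30.7%. After has2, the highest was lamb1a, and the 2 lowest were fibrillar collagens: col1a1b had 3.01 at germ ring and 3376 in egg, and col1a2 12.1 against 1798, with 8.56 and 0 at the 1k-cell stage. Of 14 collagen genes 7 were lower and 2 higher, as deposited and after rescaling, to be read beside the same shares.

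The 15 genes with the lowest ratios of the whole comparison, again without names of clone type, were cyp7a1 (listed as cyp7a1a), krt15, cd74a, rbp4, col1a1b, bhlhe40, upk1a, icn2, cfd (listed as cfdl), paplnb, msmo1, cd74b, lrrc17, icn and cldn1. Of the 15, 7 belong to the epidermis, matrix, claudin or liver lists. The share of all genes on those lists was not counted, and the lists were chosen with earlier results of these data known. Their egg values ran from 230.2 to 4047 and no more than 10 reads were found for any at germ ring, with none for 11. At the 1k-cell stage all 15 were at 14.3 or less. The bile acid enzyme gene cyp7a1 had no read against 2076, at least 459-fold lower; the antigen-presentation chaperone gene cd74a had none against 1240, and the retinol carrier gene rbp4 none against 1070.

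Markers of other tissues were read beside these genes. Over all genes 48.0% were higher and 19.8% lower, or 35.7% and 30.7% after rescaling. Of 43 listed epidermis and enveloping layer genes 38 were measured, with 15 higher and 14 lower, or 14 and 15 after rescaling, a summed value of 328630 at germ ring and 188660 in egg, and no germ ring read for krt15, icn2 and foxi3b. Of 28 ovarian follicle genes 12 were measured, with 7 higher and 1 lower, or 7 and 3 of 13 after rescaling, summing to 9933 and 16914, and cyp19a1a, foxl2, fshr, amh and star had no read in either library; most of both sums came from the steroid enzyme genes cyp11a1.1 (listed as cyp11a1), at 3541 against 13986, cyp17a1, at 2233 against 2709, and hsd3b1, at 3036 against 41.7. Of 40 liver genes 15 were measured, with 11 higher and 3 lower, or 9 and 4 of 13 after rescaling, and they summed to 390 at germ ring and 3183 in egg, of which rbp4 and cyp7a1 made up almost all in egg, while fabp10a had no read in either library. Of 38 muscle genes 13 were measured, with 11 higher and 2 lower, or 6 and 2 of 12 after rescaling, summing to 591 and 345, with myl1 and myhz1.1 at no read in both. At most 3 egg reads were found for 11 of the 15 liver genes and 9 of the 13 muscle genes. As deposited these entered through their germ ring value alone and could not be called lower. The reverse held for 3 liver genes and no muscle gene. In the red blood cell list, 9 of 14 were higher and 1 lower, or 6 and 2 of 13 after rescaling, summing to 29176 and 9146, mainly from blf and zgc:56095, while hbbe1.1 and gata1a had no read in either library. The part of cells other than the egg in the keratin, collagen and cd74 values was not tested.

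Hox genes were barely detected. Of 48 listed genes 32 stayed under 10 in both libraries. Of the 16 measured 12 were lower and 2 higher, or 14 and 1 of 17 after rescaling, and their values reached only 37.7 at germ ring and 121 in egg. Over all genes 19.8% were lower and 48.0% higher, or 30.7% and 35.7% after rescaling. At most 3 germ ring reads were found for 6 of the 16. As deposited these entered through their egg value alone and could not be called higher. The reverse held for 2. The Hox split is therefore partly set by the floor. The highest ratio belonged to hoxb2a, at 10.5 against 0 (7 reads and none), and the lowest to hoxa3a, at 0 against 19.8 (none and 10 reads).

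**Figure D5:**
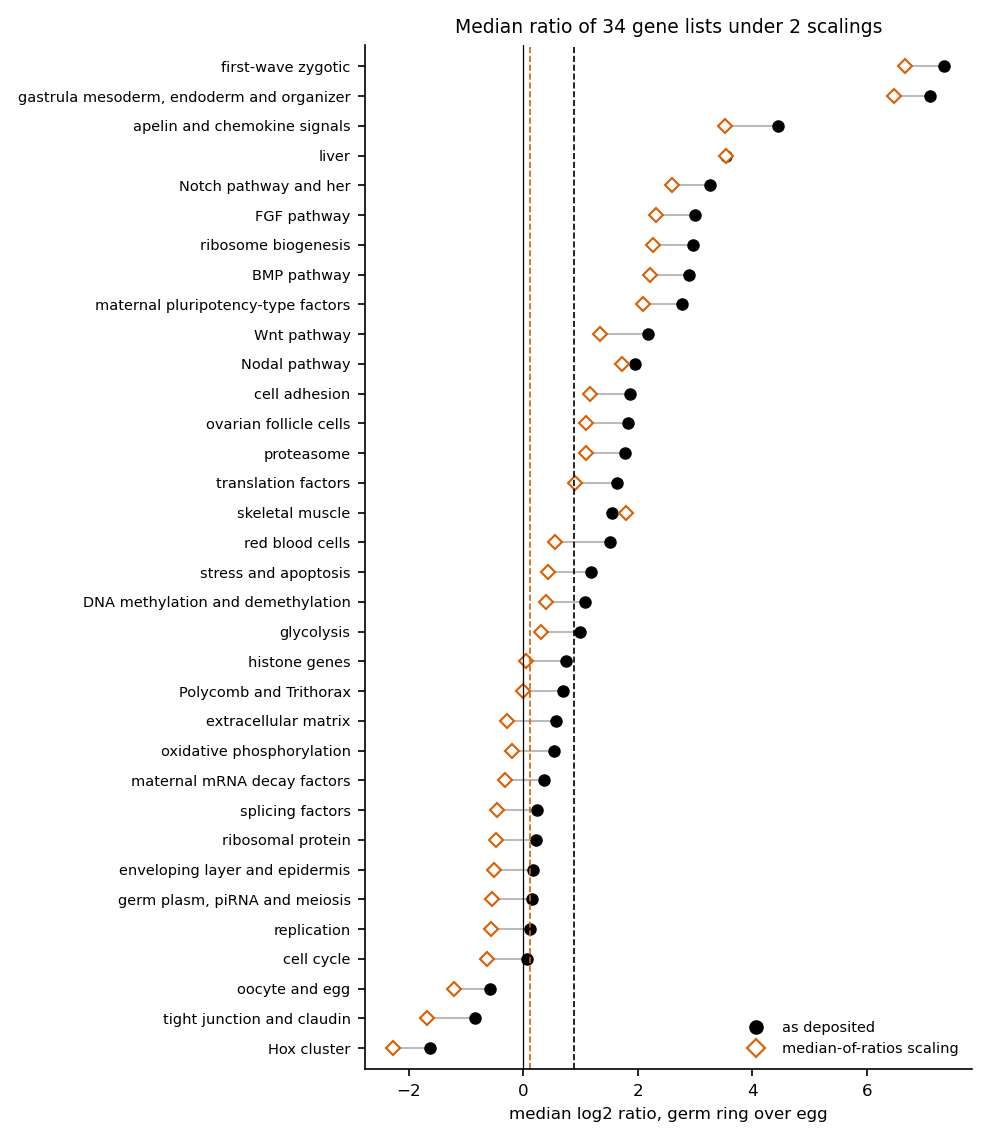
The median log2 ratio of each of 34 gene lists is shown as deposited (filled circle) and after median-of-ratios scaling (open diamond), with dashed lines for the median of all genes at 0.88 and 0.11. The first-wave zygotic and gastrula lists stay above 6 in both, while lists near the middle, such as oxidative phosphorylation and splicing, cross 0.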

How the data were processed

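Poly-A RNA was sequenced from whole germ ring embryos and from eggs, 1 library each. The authors deposited per-gene normalized counts, here called a signal. Per the submitters' processing notes BWA 0.6.1-r104 and edgeR were used with the Zv9 (danRer7) build; no roles are given there. The values were whole multiples of 1 step per library, 100% within 0.01 reads, so the deposited signal was turned back into reads (14753999 at germ ring, 9241829 in egg) for intervals and floors. These cover counting error only.

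From these values the ratio was computed with a pseudocount of 1 for names at 10 or more in either library, keeping the entry with the highest sum for the 718 names with several entries. Current symbols were matched for 13657 of 14244 names. The 15 highest and 15 lowest genes without clone-type names, the 2 highest and 2 lowest members of each of 34 lists and a fixed set of regulators are named. The members and lists were chosen with earlier results of these data known. Levels in near-identical gene copies are uncertain, since their reads may be split. Alternatives were 2 other pseudocounts, 2 other floors, 3 other scalings and 2 treatments of repeated names. The calculation was tested on simulated data. Python 3.11.15, numpy 2.4.6, pandas 2.3.3, scipy 1.17.1 and matplotlib 3.10.9 were used. Promoter sequences were not used here. Some genes of these lists are counted but not reported by name here.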

Additional observations from a re-analysis of the deposited data

How the results depend on the processing

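The number of genes at least 2-fold lower was 3387 with median-of-ratios scaling and 3533 with upper-quartile scaling, beside 2169 as deposited. At 4-fold, 1879 and 1954 were lower, beside 1148, and 2292 were higher with upper-quartile scaling, beside 3471. The median log2 ratio over all genes was 0.11 with median-of-ratios, 0.0463 with upper-quartile and 0.59 with equal-total scaling, beside 0.88. The median of 12 of the 34 lists changed sign in at least 1 setting. The ovarian follicle median became -0.28, beside 1.83, when names that share both values were left out except 1; that setting leaves fewer members. None of the 171 named genes called higher or lower reversed. The pseudocount of 5 put bmpr1bb and casq1a within 2-fold. No paired analysis was possible because each group has 1 library, and for the same reason no library could be left out. At 1 to 3 reads a level is set by counting error. The promoter comparison was not run.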

Other observations

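Among 1105 genes over 3000 in egg, without clone-type names, 433 were at least 2-fold lower at germ ring, 116 higher and 556 within 2-fold, and 45 were at least 16-fold lower. With median-of-ratios scaling the lower genes numbered 637 and the higher ones 43. Over all genes 19.8% were lower, 48.0% higher and 2.58% at least 16-fold lower, or 30.7% lower and 35.7% higher after rescaling. The 1105 genes were chosen by their egg value, the denominator of the ratio, which favours lower calls. How much of the split this makes was not tested. The next 3 genes were picked from these after their values were seen and stand for no group. The gene sybu, whose product links cargo to kinesin, had 155 at germ ring, 10265 in egg and 1103 at 1k-cell. The ubiquitin ligase gene trim36 had 692 at germ ring, 38952 in egg and 6921 at 1k-cell. The scaffold gene grip2a had 437 at germ ring, 7981 in egg and 2104 at 1k-cell.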
